A study of Mus musculus with 12 samples.

Results

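Kinesins are the motor proteins that walk along microtubules, and their genes were followed here in RNA pulled down with the long noncoding RNA Gas5 as target, in cultured mouse hippocampal neurons. Members were all rows of the total RNA table whose symbol is Kif followed by a number and, where present, a letter and a further number, which gave 39 genes of 49489. Of these, 35 had enough counts to be tested, among 20049 tested genes in all. The neurons came from newborn mice (postnatal day 0) and were used on day 16 in vitro, with no other treatment or genotype named. Titles place 3 libraries in an antisense group and 3 in a sense group. Neither title nor protocol tells capture from control, and separate cultures are not named for replicates. Each p-value therefore reflects spread among these libraries only, which may be technical.

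Each kinesin has a motor domain that hydrolyses ATP and, in most, a tail that binds cargo. In neurons, kinesin-1 (Kif5a, Kif5b, Kif5c), kinesin-2 (Kif3a, Kif3b, Kif3c) and kinesin-3 (Kif1a, Kif1b, Kif1c and relatives) carry vesicles, mitochondria and RNA granules out along axons and dendrites. Other kinesins build and move the mitotic spindle in dividing cells, work in cilia, or shorten microtubules from their ends.

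Of the 35 tested kinesins, 3 were lower and 1 was higher in antisense than in sense libraries. The lower genes were Kif5a and Kif5c, the neuron-enriched heavy chains of kinesin-1, and Kif1a, the kinesin-3 motor of synaptic vesicle precursors. The higher gene was Kif22, a spindle kinesin that binds chromosome arms. The 3 lower genes fell by 0.47 to 0.60 on the log2 scale, and Kif22 was 1.73-fold higher. Over all tested genes 4.35% were lower and 18.2% higher, and over protein-coding genes 4.78% were lower and 9.66% higher (edgeR quasi-likelihood test, Benjamini-Hochberg adjusted p under 0.05 over all 20049 genes). These directions hold on the TMM scale (trimmed mean of M values, which equalises the bulk of genes between libraries). Scaled by library totals, Gas5 counts included, the median of all genes moved to 0.70 and no tested kinesin was negative, while relative to that median the log2 differences of the 3 lower genes were -0.55 to -0.42. With sense replicate 1 left out, none of the 4 passed, with adjusted p of 0.0581 for Kif5a, 0.0599 for Kif1a, 0.0734 for Kif5c and 0.0562 for Kif22.

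The stretches just before annotated starts are shown for 3 of the 4 kinesins that passed, and come from RefSeq's table on build GRCm38.p6. Each is the 250 bases before an annotated start, 5′ to 3′ on the gene's strand. Capitals mark matches, on either strand, to GGGCGG (the GC box), CCAAT (the CCAAT box), TTTGAA (the core of the cell cycle element found before many genes of mitosis) or TATAAA. No marked matches overlapped each other. The windows are chr1:93101875-93102124 and chr1:93082481-93082730 (both minus strand) for the 2 listed starts of Kif1a, chr2:49619036-49619285 (plus strand) for Kif5c and chr7:127042421-127042670 (minus strand) for Kif22. The second Kif1a window lies wholly within the gene's span as RefSeq gives it, before an internal listed start. The first Kif1a window and the Kif22 window reach into their genes' spans in part, and the Kif5c window lies outside its gene.
Kif1a, first window: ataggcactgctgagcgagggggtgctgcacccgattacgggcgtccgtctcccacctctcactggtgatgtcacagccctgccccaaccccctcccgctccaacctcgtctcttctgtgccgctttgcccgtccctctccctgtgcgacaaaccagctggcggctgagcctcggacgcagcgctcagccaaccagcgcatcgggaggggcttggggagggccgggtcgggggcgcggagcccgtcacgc
Kif1a, second window: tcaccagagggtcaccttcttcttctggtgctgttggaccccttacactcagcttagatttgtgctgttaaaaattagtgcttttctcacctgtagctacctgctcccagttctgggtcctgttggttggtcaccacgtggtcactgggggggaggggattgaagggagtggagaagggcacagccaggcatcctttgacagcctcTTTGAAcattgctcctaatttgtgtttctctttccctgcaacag
Kif5c: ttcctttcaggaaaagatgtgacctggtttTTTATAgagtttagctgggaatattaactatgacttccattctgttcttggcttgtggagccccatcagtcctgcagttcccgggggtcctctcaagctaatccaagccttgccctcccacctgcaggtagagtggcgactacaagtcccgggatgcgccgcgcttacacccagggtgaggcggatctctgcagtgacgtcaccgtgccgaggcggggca
Kif22: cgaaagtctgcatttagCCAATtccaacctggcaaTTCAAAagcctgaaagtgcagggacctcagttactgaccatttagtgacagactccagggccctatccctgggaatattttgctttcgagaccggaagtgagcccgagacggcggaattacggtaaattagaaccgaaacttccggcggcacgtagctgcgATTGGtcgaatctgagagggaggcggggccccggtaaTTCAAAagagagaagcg

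The Kif22 window held 2 matches to CCAAT, 1 on each strand, and 2 to TTTGAA, both on the opposite strand. In the Kif5c window 1 match to TATAAA was found, on the opposite strand. In Kif1a the second window, at a GC content of 50.8%, held 1 match to TTTGAA, while the first, at a GC content of 69.2%, held no match. Among 32851 windows of this length, 33.8% held CCAAT, 16.0% held TTTGAA, 12.4% held TATAAA and 32.7% held GGGCGG. The table held 35 windows for 31 of the kinesins, of which 21 held GGGCGG, 15 CCAAT, 8 TTTGAA and 5 TATAAA. In the spindle kinesins 5 of 10 windows held TTTGAA, and in the transport kinesins 1 of 13, which was the second Kif1a window, inside the gene. GGGCGG was in 6 of 10 spindle and 8 of 13 transport windows. CCAAT was in 6 of 10 and 4 of 13, and TATAAA in 1 of 10 and 1 of 13. No difference between roles was tested. A match to a few letters is not a binding site.

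Sequencing depth and the target set the scale of every value. The 6 libraries held 5775052 to 10424167 counts. Gas5 itself took 11.6% ± 2.34 of counts in antisense and 45.3% ± 12.3 in sense (SD, n = 3 each). In sense replicates 1, 2 and 3 its share was 57.1% (95% exact interval 57.10% to 57.16%), 32.7% (32.63% to 32.70%) and 46.1% (46.08% to 46.15%), which covers counting error only. Levels below are CPM, a gene's count scaled to a common TMM-adjusted library size. CPM is not corrected for transcript length, so levels are compared between groups for 1 gene and do not rank expression between genes. Across genes, CPM was used to choose which to print and to form sums. All 5 pan-neuronal markers (Rbfox3, Tubb3, Map2, Snap25 and Syt1) had counts in every library. All astrocyte, ciliated-cell and dividing-cell markers read had counts in every library too. Counts of a marker do not by themselves show that cells of that type were present. In pulldown RNA of whole cultures, fewer cells of a type, less RNA per cell and less RNA captured cannot be told apart. A gene said to fall or rise below therefore differs between pulldown groups, not necessarily in expression.

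Among transport kinesins, Kif5a (chromosome 10, 127225695 to 127266348, gene ID 16572) encodes a kinesin-1 heavy chain known for carrying neurofilaments and mitochondria in axons. It stood at 101, 98.0 and 67.8 CPM in the antisense libraries and at 160.5, 107 and 139 CPM in the sense libraries. All antisense libraries lay below all sense libraries, with antisense replicate 3 lowest and sense replicate 1 highest. The means were 89.0 ± 18.4 and 135 ± 27.0 CPM (SD, n = 3 each), a log2 difference of -0.60 (SE 0.156; edgeR adjusted p = 0.00979). Its span overlaps Gm40800 and Dctn2, a dynactin gene that averaged 71.4 CPM (antisense) and 80.1 CPM (sense) and did not pass. Dctn2 begins at position 127266262, so only the last stretch of the Kif5a span is shared with it. Without stated strand, reads of the shared stretches may not be told apart.

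Kif5c (chromosome 2, 49619286 to 49774778, gene ID 16574), the other neuron-enriched heavy chain, had 132, 139.6 and 100.1 CPM in antisense and 214, 149 and 173 CPM in sense. Again the groups did not overlap, although antisense replicate 2 and sense replicate 2 were close. On the log2 scale it fell by 0.53 (SE 0.139; edgeR adjusted p = 0.0114). Its span overlaps that of Gm46738.

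Kif5b, the heavy chain that most cell types express, had 157, 149 and 129 CPM in antisense and 173, 156 and 170.2 CPM in sense. The groups overlapped, since antisense replicate 1 lay just above sense replicate 2. Its log2 fold change of -0.20 (95% interval -0.41 to 0.00; edgeR adjusted p = 0.161) did not pass.

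Ratios within a library do not depend on how libraries are scaled to each other. The count of Kif5a over that of Kif5b was 0.645, 0.659 and 0.525 in antisense and 0.925, 0.682 and 0.815 in sense, with no overlap. Kif5c over Kif5b was 0.844, 0.939 and 0.775 in antisense and 1.24, 0.953 and 1.02 in sense, also with no overlap but nearly touching. Kif5a over Kif5c was 0.715 ± 0.0449 in antisense and 0.755 ± 0.0431 in sense (SD, n = 3 each), where the groups overlapped. These ratios were chosen after the values were seen and were not tested.

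**Figure D1:**
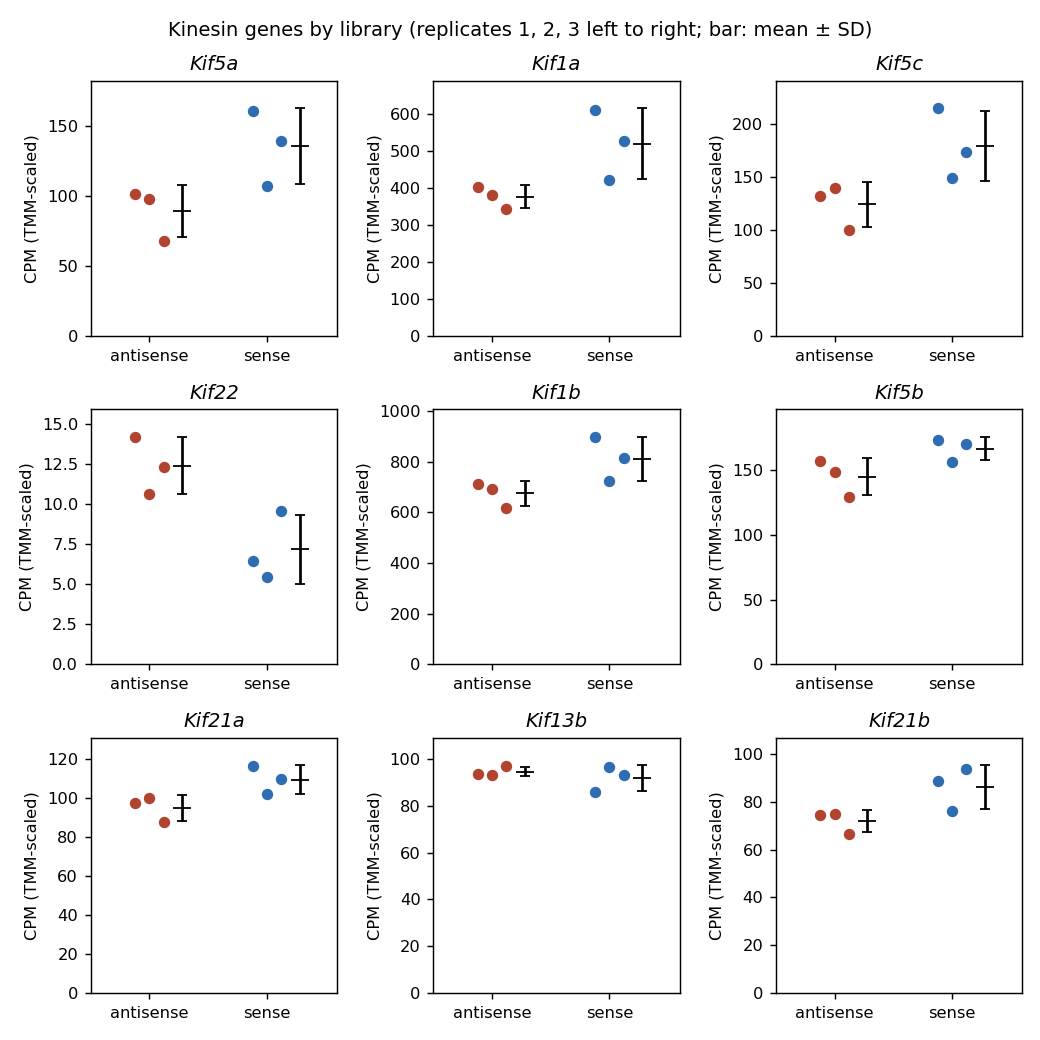
CPM (TMM-scaled, vertical axis from 0) of the 4 kinesins that passed and of 5 others with high CPM, for antisense (left, red) and sense (right, blue) libraries, with points in replicate order and bars for mean ± SD of 3. On this scale Kif5a, Kif1a and Kif5c lay lower in all antisense libraries and Kif22 higher, while Kif13b and Kif5b overlapped; on library totals Kif5a, Kif1a and Kif5c had positive log2 fold changes.

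Kif1a (chromosome 1, 93015455 to 93102039, gene ID 16560) had 404, 382 and 342 CPM in antisense and 611, 421 and 528 CPM in sense. No library of one group reached the other, and sense replicate 1 was the highest by a wide margin. The means were 376 ± 31.0 and 520.1 ± 95.3 CPM (SD, n = 3 each), and Kif1a fell by 0.47 on the log2 scale (SE 0.122; edgeR adjusted p = 0.0107).

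Its close relative Kif1b, which carries mitochondria and vesicle precursors, had 712, 693 and 617 CPM in antisense and 897, 722 and 812 CPM in sense. The groups did not overlap, but the log2 difference of -0.26 (SE 0.101; edgeR adjusted p = 0.0787) did not pass. In the authors' deposited table, which gives sense over antisense, Kif1b had a log2 fold change of 0.27 with an adjusted p of 0.036. The authors' deposited table thus called 4 kinesins lower in antisense (Kif1a, Kif1b, Kif5a and Kif5c) and 1 higher (Kif22) of 38 with an adjusted p, against 2.19% lower and 13.8% higher over all its genes. Kif1a over Kif1b within a library was 0.566, 0.551 and 0.555 in antisense and 0.682, 0.584 and 0.650 in sense. Kif1a over Kif1c was 5.37, 5.81 and 4.34 in antisense and 7.35, 5.58 and 6.14 in sense, where the groups overlapped. The groups overlapped for Kif1a over Kif5a too. As with the kinesin-1 ratios, these were chosen after the values were seen and were not tested. Kif1c, a kinesin-3 of many tissues, had a log2 value of -0.16 (SE 0.0991) that did not pass.

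Kif21a and Kif21b, which restrain microtubule growth, did not pass. Kif21a had 97.2, 100.04 and 87.3 CPM in antisense and 117, 102 and 109.6 CPM in sense. Kif21b had 74.7, 74.9 and 66.7 CPM in antisense and 88.9, 76.2 and 93.9 CPM in sense. In both the antisense libraries lay below the sense libraries by small margins, with log2 fold changes of -0.20 (adjusted p = 0.145) and -0.26 (adjusted p = 0.0857) in edgeR.

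Kif13b, a kinesin-3 that moves membrane scaffolds, gave near-equal values of 93.6, 93.4 and 97.0 CPM in antisense and 86.0, 96.6 and 93.2 CPM in sense. Its log2 fold change was 0.04 with a 95% interval of -0.15 to 0.23. The kinesin-2 subunits Kif3a (-0.13), Kif3b (-0.20) and Kif3c (-0.19), the endosomal motors Kif13a (-0.20) and Kif16b (0.05), and Kif17 (0.16), which carries NMDA receptor subunits in dendrites, did not pass, as log2 fold changes.

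Over the 15 transport kinesins the median log2 fold change was -0.20, beside -0.01 over all tested genes and -0.07 over protein-coding genes. In 12 of the 15 the log2 fold change was negative on the TMM scale, and in none on library totals. All antisense libraries lay below all sense libraries for 8 of the 15. For the 35 tested kinesins that held for 11, and the reverse held for 3, where 13.2% of all tested genes had antisense below and 23.4% had it above. Over protein-coding genes these shares were 15.8% below and 14.5% above. The summed level of the 15 transport kinesins was 2079, 2036 and 1812 CPM in antisense and 2696, 2150.4 and 2463 CPM in sense.

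Level in the sense libraries followed the library as well as the group. In 8 of the 15 transport kinesins, including Kif5a, Kif5c, Kif1a and Kif1b, sense replicate 1 was highest and sense replicate 2 lowest, as with the Gas5 share. That order was found in 18.7% of all tested genes, in 22.6% of protein-coding genes and in 1 of 11 spindle kinesins. Pan-neuronal markers moved alongside: their sum was 720.2 to 904 CPM in antisense and 903 to 1110.3 CPM in sense, all 5 had negative log2 fold changes, none passed, and 4 of 5 had the same order of sense libraries. Camk2a passed as lower among the 2 excitatory markers, whose sum was 197 to 253 CPM in antisense and 276 to 391 CPM in sense. Astrocyte markers summed to 1010.4 to 1274 CPM in antisense and 1183 to 1531 CPM in sense, with 1 of 5 passing as lower. All 5 astrocyte markers had negative log2 fold changes, and 4 of 5 had that same order of sense libraries. Aldh1l1 was the astrocyte marker that passed, and no marker named in these 3 lists was at 0 in any library. Among the other lists, none of 2 inhibitory, 4 oligodendrocyte and 3 vascular markers passed, and of 4 microglial markers 1 was higher and 1 lower. The same order of sense libraries held in 2 of 2 excitatory and 1 of 2 inhibitory markers. For oligodendrocyte, vascular and microglial markers it held in 3 of 4, 1 of 3 and 0 of 4. The part of capture in the pulldown, of cell makeup and of the Gas5 share in the kinesin differences was not tested.

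**Figure D2:**
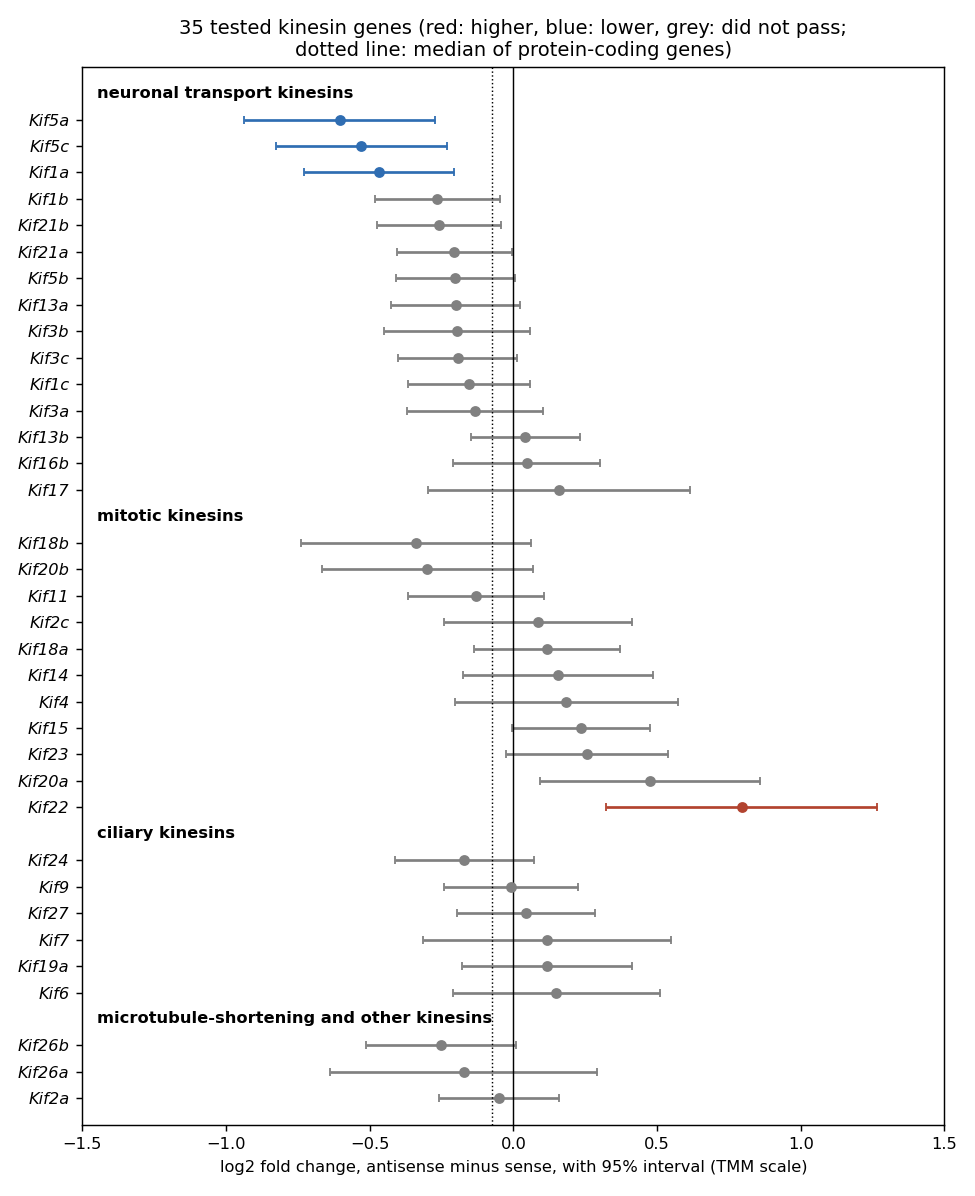
Log2 fold change, antisense minus sense on the TMM scale, with its 95% interval, for the 35 tested kinesins grouped by role. Kif5a, Kif5c and Kif1a passed as lower (blue) and Kif22 as higher (red), and the dotted line marks the median of protein-coding genes at -0.07; on library totals all 35 values were positive.

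Among the 11 spindle kinesins, Kif22 (chromosome 7, 127027729 to 127042467, gene ID 110033) was the gene that passed. It had 14.2, 10.7 and 12.3 CPM in antisense and 6.48, 5.45 and 9.59 CPM in sense. Every antisense library lay above every sense library, with sense replicate 3 nearest. The means were 12.4 ± 1.77 and 7.18 ± 2.15 CPM (SD, n = 3 each), from 283 and 132 counts over the groups. On the log2 scale Kif22 rose by 0.79 (SE 0.221; edgeR adjusted p = 0.0158), and leaving out antisense replicate 1 (adjusted p = 0.0799) or, in another fit, sense replicate 2 (adjusted p = 0.0584) also ended the call. No other gene of the RefSeq table overlaps its span. The row of its pseudogene copy, Kif22-ps, held no count in any library.

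Kif20a, a motor of cytokinesis, had 14.6, 11.3 and 14.1 CPM in antisense and 10.9, 8.73 and 9.08 CPM in sense. Its groups did not overlap, yet the log2 difference of 0.47 (SE 0.179; edgeR adjusted p = 0.0734) did not pass. Its span overlaps those of Brd8 and Cdc23, at 108 and 58.4 CPM in antisense and 123 and 61.4 CPM in sense, and counting by strand is not stated, so its value is uncertain. Without antisense replicate 2 it passed (adjusted p = 0.0401).

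Kif15, which helps keep the spindle bipolar, had 31.4, 29.8 and 32.0 CPM in antisense and 26.1, 28.5 and 24.5 CPM in sense, for a log2 difference of 0.24 (edgeR adjusted p = 0.161). Kif23, the motor of the central spindle, had 32.2, 32.0 and 30.7 CPM in antisense and 25.1, 31.8 and 22.3 CPM in sense, for a log2 difference of 0.26 (edgeR adjusted p = 0.194). Sense replicate 2 overlapped the antisense libraries in Kif23, which passed without it (adjusted p = 0.0348).

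Kif11, the motor that slides spindle microtubules apart, leaned the other way, at 24.9 to 25.8 CPM in antisense and 26.8 to 28.3 CPM in sense with no overlap. Its log2 fold change of -0.13 (95% interval -0.37 to 0.11) did not pass. The log2 fold changes of Kif18b (-0.34) and Kif20b (-0.30) were also negative and those of Kif2c, Kif4, Kif14 and Kif18a lay between 0.09 and 0.18, none passing. The spindle kinesins had a median of 0.16, with 8 of 11 positive. Kif22 over Kif11 within a library was 0.551, 0.428 and 0.489 in antisense and 0.232, 0.203 and 0.339 in sense. Kif11 leaned the other way and was picked after its values were seen, which widens this ratio. It was not tested.

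Markers of dividing cells were read beside Kif22. Of 8 such markers, among them Mki67 and Top2a, none passed and 6 had negative log2 fold changes. Their sum was 181 to 206 CPM in antisense and 194 to 230.5 CPM in sense, while the spindle kinesins summed to 197 to 209 CPM in antisense and 179 to 193 CPM in sense. Summed counts of transport over spindle kinesins, a ratio free of scaling between libraries, were 9.93, 10.3 and 8.73 in antisense and 14.3, 11.1 and 13.8 in sense, with no overlap. The transport sum holds Kif5a, Kif5c and Kif1a and the spindle sum holds Kif22, so this ratio is not separate from the calls of those genes. In antisense, Kif1b and Kif1a averaged 674 and 376 CPM within a mean transport sum of 1976 CPM. The comparison of the 2 sums was chosen after the values were seen and was not tested.

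**Figure D3:**
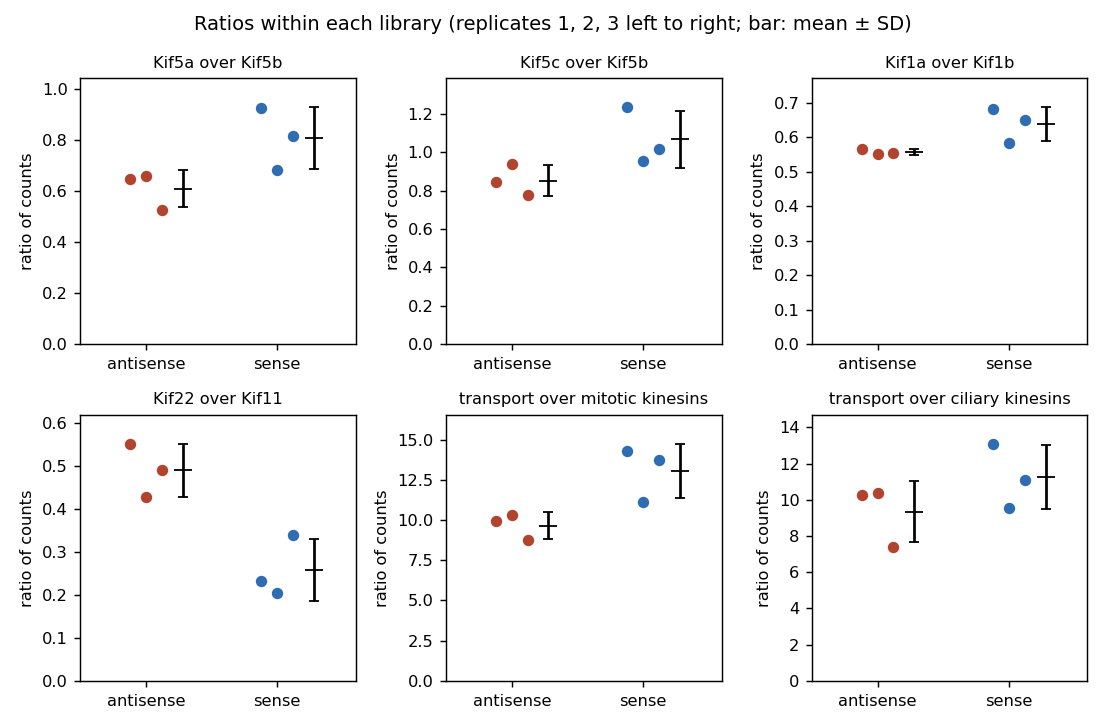
Ratios of estimated counts within each library (vertical axis from 0) for antisense (left, red) and sense (right, blue), with points in replicate order and bars for mean ± SD of 3. Kif5a over Kif5b and transport over mitotic (spindle) kinesins were lower in all antisense libraries, Kif22 over Kif11 was higher in all, and transport over ciliary kinesins overlapped. The transport and spindle sums hold the kinesins that passed. The ratios were chosen after the values were seen and were not tested.

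None of the 6 ciliary kinesins passed. They included Kif7, which acts in Hedgehog signalling, Kif9 and Kif6 of motile cilia, Kif19a, which limits cilium length, Kif24 and Kif27. Their log2 fold changes ran from -0.17 (Kif24) to 0.15 (Kif6), with a median of 0.08 and standard errors of 0.109 to 0.201. Their summed level was 197 to 245 CPM in antisense and 206 to 225 CPM in sense, which overlapped. Of the 5 markers of ciliated cells, none passed, all had negative log2 fold changes, and their sum was 348 to 387 CPM in antisense and 360.2 to 437 CPM in sense.

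Of the other members, Kif2a, which shortens microtubules and limits axon branches, had a log2 fold change of -0.05 (95% interval -0.26 to 0.16). Kif26a and Kif26b, atypical kinesins, had -0.17 and -0.25, and none of these passed. The remaining 4 had too few counts to be tested. Kif2b had no count in any library. Over the groups Kif12 had 15 counts in antisense and 6 in sense, Kif19b had 9 and 9, and Kif28 had 34 and 19.

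Other motors, genes that work with kinesins, and dynein, the motor that walks the opposite way, were read from a list of 56, of which 55 were tested. Of these, 7 were lower, 1 was higher and 47 missed the threshold, where 4.35% of all tested genes were lower and 18.2% higher. Over protein-coding genes these shares were 4.78% lower and 9.66% higher. The median of the 55 tested genes of the list was -0.14 on the log2 scale. The kinesin side of that list also holds 5 motors with other symbols, Kifc1, Kifc2, Kifc3, Kifc5b and Cenpe, none of which passed. Of its 27 tested genes 4 were lower, beside the 4.35% over all genes: Klc1 (-0.30), a light chain of kinesin-1, Mapk8ip1 (-0.44) and Mapk8ip2 (-0.55), scaffolds that link kinesin-1 to cargo, and Clstn1 (-0.48), a membrane cargo adaptor. Klc1 stood at 103, 96.6 and 87.1 CPM in antisense and 125, 108 and 121 CPM in sense, with no overlap, and edgeR gave an adjusted p of 0.0349. In the other 3 the groups overlapped, since sense replicate 2 lay below the highest antisense library. Clstn1 had 121, 113 and 93.5 CPM in antisense and 184, 117 and 155 CPM in sense. Mapk8ip1 had 56.7, 50.1 and 44.1 CPM in antisense and 78.3, 52.2 and 74.2 CPM in sense. Mapk8ip2 had 28.5, 30.3 and 22.9 CPM in antisense and 48.7, 29.0 and 42.3 CPM in sense, so sense replicate 1 was highest in all 3.

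Fez2, of a family of kinesin-1 adaptors, was the higher partner. It had 21.6, 22.7 and 24.7 CPM in antisense and 11.2, 9.97 and 10.8 CPM in sense, and was 2.15-fold higher (edgeR adjusted p = 2.51e-05). Every antisense library lay far above every sense library. The spans of Crim1 and Gm32336 overlap it, so reads of neighbours may not be told apart from its own.

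Among 28 genes of dynein and its cofactor dynactin, 3 were lower, beside 4.35% of all tested genes and 4.78% of protein-coding ones. The dynein heavy chain gene Dync1h1 had 1026, 1019 and 719.6 CPM in antisense and 1778, 1097 and 1375 CPM in sense, for a log2 difference of -0.62 (edgeR adjusted p = 0.0106). DESeq2 did not call it (adjusted p = 0.0796), nor did the authors' deposited table (adjusted p = 0.091). Dctn1, the largest dynactin subunit, changed by -0.44 and the light chain gene Dynll2 by -0.42, with overlapping groups in Dynll2. With the replicate number as a block, Klc1 (adjusted p = 0.0542) and Dynll2 (adjusted p = 0.0538) missed the threshold in edgeR. Each of these 7 lower genes lost its call without sense replicate 1, and each had a positive log2 fold change on library totals. In Dync1h1 and Dctn1 sense replicate 1 was highest and sense replicate 2 lowest, as in Kif5a, Kif5c and Kif1a.

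**Figure D4:**
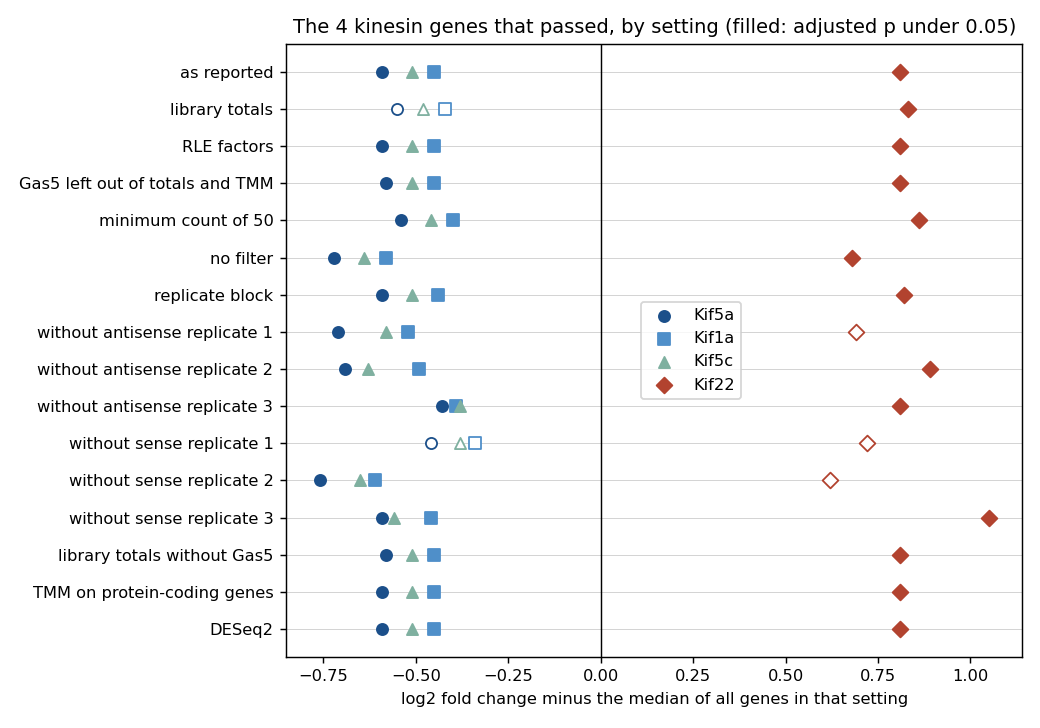
Log2 fold change of the 4 kinesins that passed, minus the median of all genes in the same setting, for the reported fit and each alternative, filled where the adjusted p was under 0.05. Kif5a, Kif1a and Kif5c stayed below that median in every setting shown and Kif22 above it, while without sense replicate 1 none of the 4 passed; before subtraction of that median, Kif5a, Kif1a and Kif5c were positive on library totals.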

How the data were processed

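Total RNA libraries of a Gas5 pulldown, 3 antisense and 3 sense by title, were analysed; the 6 small RNA libraries were not used here. The authors' deposited table holds estimated counts per gene symbol, and per the submitters' processing notes Salmon, DESeq and build GRCm38 were used, with no versions; strand and index were not stated in those sources. The authors' deposited comparison table gives mean normalised signal, a test statistic (score), log2 fold changes and p-values, sense over antisense, and was read only side by side.

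Estimated counts were rounded. Rows passed filterByExpr (edgeR 4.0.16, R 4.3.3) at a minimum count of 10. With TMM factors, antisense was tested against sense by the two-sided quasi-likelihood test of edgeR over all 20049 genes, with Benjamini-Hochberg adjustment at 0.05. Standard errors are the log2 fold change over the square root of F. The steps were tested on simulated data. Libraries of a group differed by more than sampling noise.

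Members, lists and the naming rule were chosen with earlier results of these data known. Every library's value is given for members that passed and for the 8 with the highest mean CPM. Kif20a, Kif15, Kif23, Kif11, Brd8 and Cdc23 were singled out after their values were seen. Positions and sequences came from RefSeq tables of GRCm38.p6, matched by symbol for 38 of 39 kinesins. Alternatives were DESeq2 1.42.0, library totals, RLE factors, Gas5 left out, other count minimums, a replicate block and leaving out each library. Library totals without Gas5 and TMM on protein-coding genes were added without having been planned.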

Additional observations from a re-analysis of the deposited data

How the results depend on the processing

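Under DESeq2, RLE factors, Gas5 left out, a minimum count of 50 and totals without Gas5, 1 kinesin was higher and 3 were lower, as reported, and no filter gave 1 and 4. Totals without Gas5 had not been planned as an alternative. Under DESeq2 Dync1h1 was no longer called (adjusted p = 0.0796). Library totals gave 26 higher and 0 lower kinesins, 35 and 0 partner and dynein genes, 12804 and 62 genes in all, and a kinesin median of 0.59. There the log2 fold changes were 0.15 for Kif5a, 0.28 for Kif1a, 0.22 for Kif5c, 0.47 for Kif1b and Kif21b and 0.52 for Kif5b and Kif21a. They were 0.14 for Dync1h1, 0.30 for Dctn1 and Dynll2, 0.28 for Clstn1, 0.21 for Mapk8ip2, 0.42 for Klc1 and 0.31 for Mapk8ip1; by construction, the large Gas5 share of sense libraries then lowers every other gene there. A minimum count of 50 gave 1795 higher and 402 lower genes, with fewer genes tested, and 3 lower partner and dynein genes. TMM on protein-coding genes, chosen after seeing the data, gave 2 higher kinesins, 4 lower partner and dynein genes and 557 lower genes in all, and the cause was not tested. Leaving out 1 library at a time gave 0 to 2 higher and 0 to 5 lower kinesins, 0 to 9 lower partner and dynein genes and 492 to 1100 lower genes in all. Kif13b ran from -0.02, without sense replicate 1, to 0.08. Same-numbered libraries did not deviate together (correlations 0.077, -0.099 and -0.010), and a fit with the replicate block kept the 4 kinesin calls, at 1 higher and 3 lower, with log2 fold changes of -0.61 for Kif5a, -0.46 for Kif1a, -0.53 for Kif5c and 0.81 for Kif22. It left 5 lower partner and dynein genes, with Klc1 (adjusted p = 0.0542) and Dynll2 (adjusted p = 0.0538) no longer called. Low counts limit precision, with standard errors of 0.221 for Kif22 and 0.212 for Kif17, against 0.0885 for Kif13b.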

Other observations

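Genes nested in or overlapping kinesin genes were counted apart from their hosts. Of 38 kinesins with a position, 25 overlapped at least 1 other gene of the RefSeq table and 13 overlapped none. Of 14 overlapping genes tested, 5 were higher in antisense, none was lower and 9 did not pass. Over all tested genes 18.2% were higher, and over protein-coding genes 9.66%. The overlapping genes mix coding and noncoding genes, and no share over noncoding genes alone was taken. The count is therefore not a measure of what overlap with a kinesin does. The long noncoding RNA Gm41664, which overlaps Kif5b, had 56 counts in antisense and 3 in sense. A430108G06Rik, which overlaps Kif3a, had 101 counts in antisense and 21 in sense, a log2 fold change of 1.95 (edgeR adjusted p = 0.000768). The noncoding RNAs Gm26555 over Kif27 (0.93) and Gm16555 over Kif6 (0.89) and the coding gene Btbd17 over Kif19a (0.86) were also higher. The log2 fold changes of their hosts Kif5b (-0.20), Kif3a (-0.13), Kif27 (0.04), Kif6 (0.15) and Kif19a (0.12) did not pass. Counting by strand is not stated, so reads of host and overlapping gene may not be told apart.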
